A study of Mus musculus with 12 samples.

Results

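The transcripts of 10 genes that handle iron and heme were followed in M2-like bone marrow-derived macrophages (BMDM) exposed to interferon β (IFNβ). The set holds the ferritin chains Fth1 and Ftl1, their autophagy receptor Ncoa4, the transferrin receptor Tfrc, the endosomal reductase Steap3, the metal transporters Slc11a1 and Slc11a2, the iron exporter Slc40a1 (ferroportin), the ferroxidase Cp (ceruloplasmin) and the heme-degrading enzyme Hmox1. They were taken by gene symbol, 10 of the 56748 rows of the count matrix, and 10 of 10 passed the filter on low counts that left 15033 genes to be tested.

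BMDM came from C57BL/6J mice and were differentiated with 20 ng/mL M-CSF, and all 4 groups were polarized with 10 ng/mL IL-4 for 48 h before the 72 h treatment. Untreated control cells received plain medium. The rIFNβ group received recombinant IFNβ at a concentration equivalent to the 1500 pg/mL of the tumoral source. That source was Ifnb1eGFP supernatant, medium of YUMM5.2 cells (a mouse melanoma line) carrying a lentiviral Ifnb1 and eGFP cassette behind a tetracycline response promoter, collected after 72 h with 1 µg/mL doxycycline (Dox) and diluted to that concentration. The eGFP supernatant came from Dox-treated YUMM5.2 cells with eGFP alone, diluted by the same ratio. Both supernatants therefore carried Dox and tumor cell products, and neither the untreated nor the rIFNβ medium did. Each group had 3 libraries described as 3 biological replicates, with 3 mice per condition. The labels give no donor age and do not say whether the 4 groups shared donors.

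Macrophages take up iron bound to transferrin, as free metal, or as heme from engulfed red cells. Heme oxygenase frees the iron, ferritin stores it, and ferroportin is the only known route out. Much of this circuit is set after transcription. When iron is scarce, iron regulatory proteins bind a hairpin called the iron-responsive element (IRE), which blocks translation of ferritin and ferroportin mRNA and stabilizes transferrin receptor mRNA. The libraries measured mRNA alone, so translation and protein were not seen.

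The IRE hairpins are shown because they mark which of the 10 mRNAs carry this switch. A search on the transcript strand for a bulged C, 5 bases, the loop CAGTGN and 5 bases pairing with the first 5 found it in 4 genes. The bulged C and the loop are in capitals, and coordinates are those of GRCm39. The Fth1 element lies in the 5′ UTR on the plus strand at chr19:9960096-9960125, the Ftl1 element in the 5′ UTR on the minus strand at chr7:45109202-45109231, and the Slc40a1 element in the 5′ UTR on the minus strand at chr1:45964624-45964653. Tfrc held 4 elements in its 3′ UTR on the plus strand, at chr16:32450037-32450066, chr16:32450416-32450445, chr16:32450481-32450510 and chr16:32450528-32450557.
Fth1: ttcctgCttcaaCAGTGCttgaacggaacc
Ftl1: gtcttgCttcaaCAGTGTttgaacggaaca
Slc40a1: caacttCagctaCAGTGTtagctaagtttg
Tfrc at 32450037: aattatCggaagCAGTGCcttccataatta
Tfrc at 32450416: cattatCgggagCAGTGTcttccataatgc
Tfrc at 32450481: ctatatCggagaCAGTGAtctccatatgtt
Tfrc at 32450528: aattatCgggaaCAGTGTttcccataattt

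These letters are rare. They were found in 24 of 20456 canonical 5′ UTRs (0.117%) and in 124 of 20599 canonical 3′ UTRs (0.602%). With 1 unpaired base allowed in the 3′ arm, Slc11a2 was added, through the 3′ UTR of a transcript that is not its canonical one, on the minus strand at chr15:100293033-100293062. That hairpin is shown because Slc11a2 is made as mRNAs with and without an element.
Slc11a2: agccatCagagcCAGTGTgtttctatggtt

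Hairpins with that 1 unpaired base, the fully paired ones not counted, occurred in 0.191% of 5′ and 1.15% of 3′ UTRs. The counts are per gene and cannot separate the Slc11a2 mRNAs with the element from those without. Ncoa4, Steap3, Slc11a1, Cp and Hmox1 had no match in these windows.

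**Figure D1:**
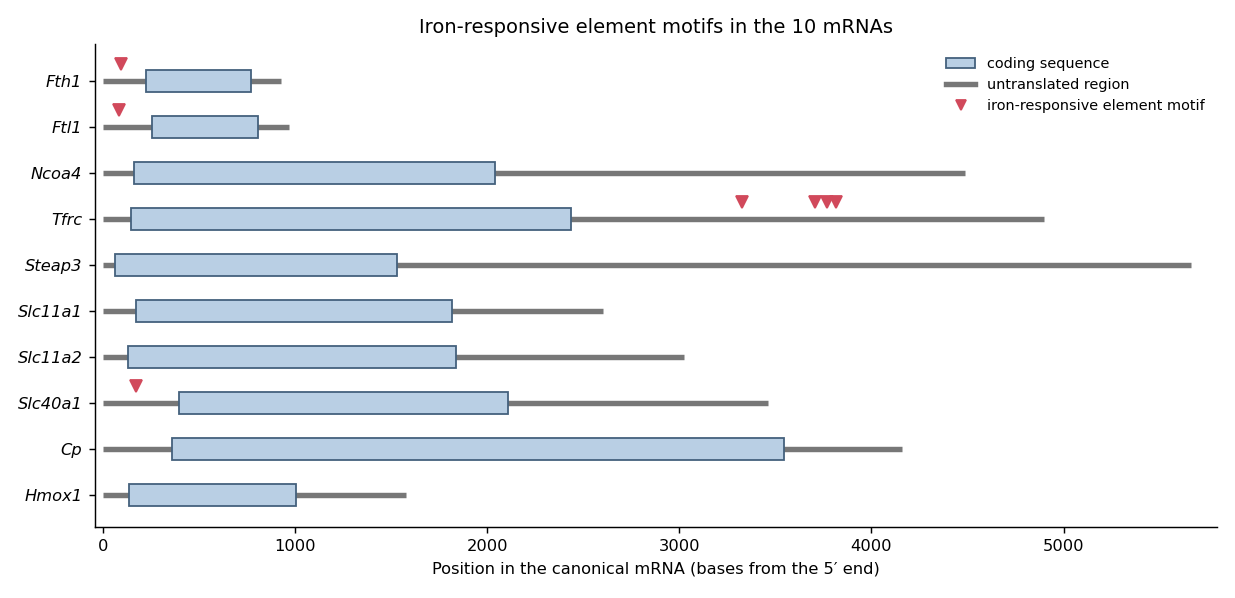
The canonical mRNA of each of the 10 genes, drawn to scale in bases from the 5′ end, with the coding sequence as a box and iron-responsive element motifs as red triangles. Fth1, Ftl1 and Slc40a1 carry 1 motif each before the coding sequence and Tfrc carries 4 after it, while the other mRNAs drawn carry none.

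Before the results, the libraries were checked against their labels. Totals ran from 31526034 to 45348457 counts. A list of 8 IFN response genes summed to 8710 to 9750 CPM (a library's counts of the gene as a share of all its counts, scaled by TMM factors) in the libraries with IFNβ and to 89.7 to 136 CPM in untreated cells. In eGFP supernatant libraries the sum ranged from 93.8 to 661 CPM, the highest in replicate 2. Leaving that library out left 8 of the 10 genes called between the supernatants, as with it. Of all tested genes 47.9% were called without it and 55.1% with it. All 8 macrophage markers were detected, with sums of 14400 to 18800 CPM without IFNβ and 9820 to 10700 CPM with it. In each IFNβ comparison 7 of the 8 were called, 4 higher and 3 lower. These and the marker counts below are to be read beside all tested genes, of which 55.3% (rIFNβ) and 55.1% (supernatants) were called. The 6 M2-like markers summed to 744 to 967 CPM without IFNβ and 835 to 1030 CPM with it. Of the 5 tested, 2 were called higher and 0 lower in each comparison. Cd209a was at 4 counts or fewer, and Arg1 had 13 to 23 counts in untreated libraries. Of 7 melanoma markers Mitf, which macrophages also express, made up nearly all of the sum. That sum was 153 to 168 CPM without IFNβ and 88.1 to 103 CPM with it. Pmel had 9 to 31 counts per library, Tyrp1 was at 0 in every library, and Tyr, Dct, Mlana and Sox10 were at 5 counts or fewer. No erythroid marker exceeded 5 counts, and Hbb-bt was at 0 throughout. The 7 fibroblast and stromal markers summed to 31.6 to 86.1 CPM without IFNβ and 51.5 to 82 CPM with it, with 2 called higher in each comparison (Dcn by 1.35 and 1.8 and Pdgfra by 1.17 and 1.67 on the log2 scale) and 2 and 1 lower, Col1a1 falling by 1.08 and 1.03. The 5 dendritic cell markers summed to 1.54 to 2.03 CPM without IFNβ and 0.348 to 0.697 CPM with it, and Zbtb46 fell by 2.22 and 2.32, while Flt3 and Siglech were at 1 count or fewer. The part of these shifts in the results on iron genes was not tested.

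The first question was whether IFNβ alone altered these transcripts. In rIFNβ against untreated cells 8 of 10 genes were called at an adjusted p of at most 0.05, 6 lower and 2 higher, where 55.3% of all tested genes were called (24.6% lower and 30.7% higher). Tfrc fell most and Cp rose most, while both ferritin chains, Hmox1, Slc11a2 and Slc11a1 fell. The median log2 fold change of the 10 was -0.44, against 0.044 over all tested genes. In 7 of the 10 the 2 groups did not overlap, against 66.1% of all tested genes. At a stricter threshold, an adjusted p of at most 0.01 and a log2 fold change of 2 or more in size, 0 of the 10 were called, where 5.77% of all tested genes were.

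The second comparison asked the same of tumoral IFNβ, with the eGFP supernatant as its control. Again 8 of 10 genes were called, 7 lower and 1 higher, where 55.1% of all tested genes were called (25.0% lower and 30.1% higher). The median was -0.54, against 0.028 over all tested genes, and in 8 of the 10 the groups did not overlap, against 59.0%. At the stricter threshold 0 of the 10 were called, where 5.39% of all tested genes were. These libraries are all different from those of the rIFNβ comparison. The genes called in both comparisons were Fth1, Ftl1, Hmox1, Tfrc, Slc11a1, Slc11a2 and Cp, each in the same direction. Slc40a1 was called in the first alone and Ncoa4 in the second alone, and Steap3 in neither. In bulk RNA a smaller number of cells of one kind and less RNA per cell cannot be told apart.

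**Figure D2:**
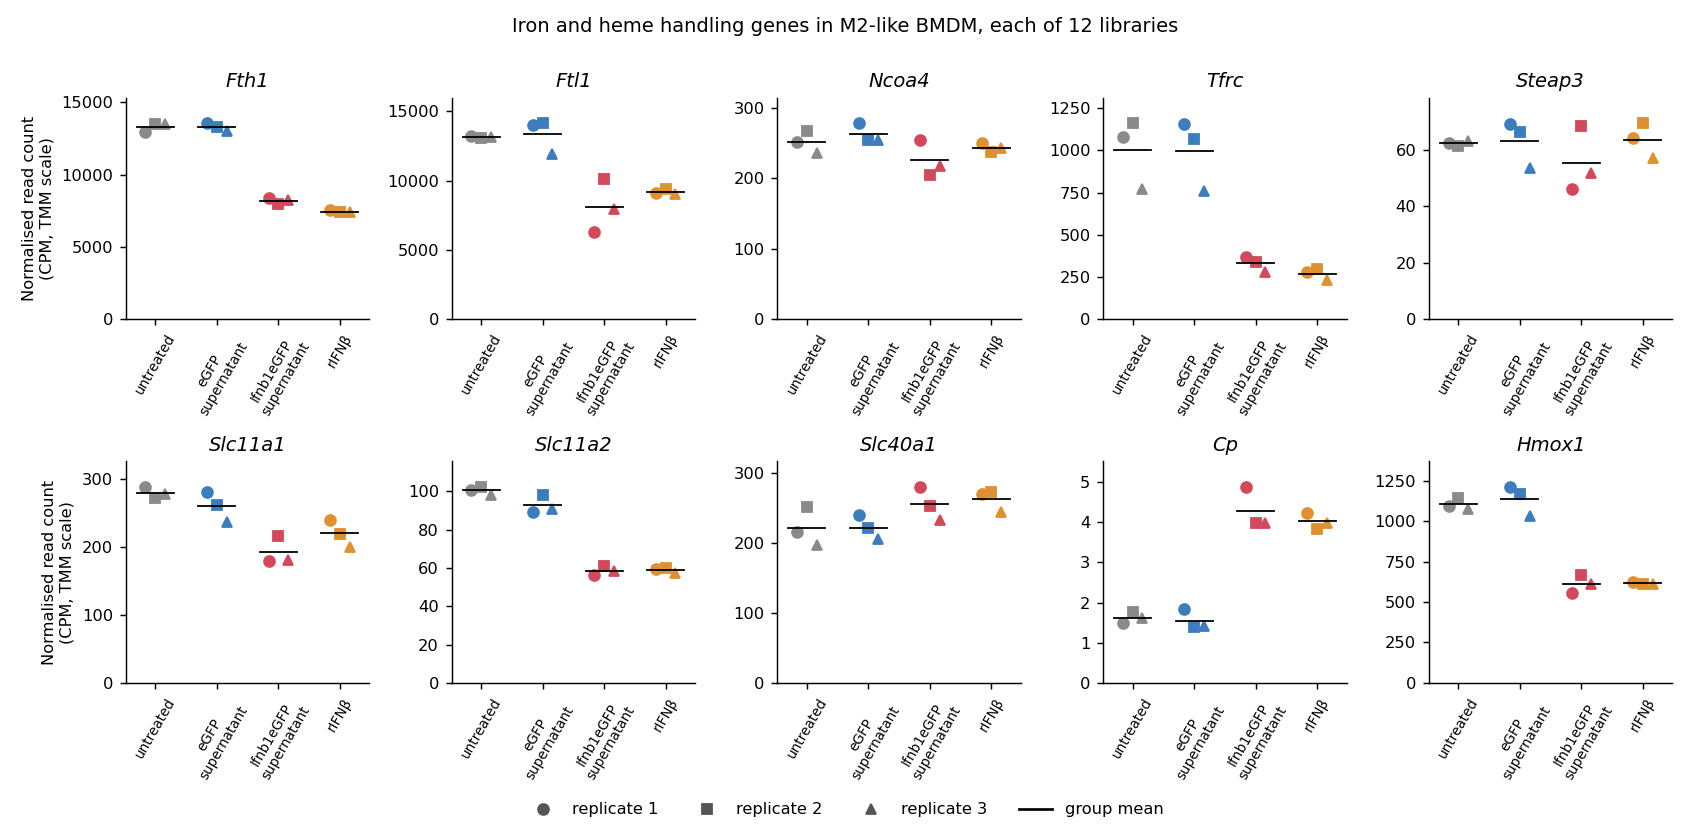
Normalised read counts (CPM, linear axes from 0) of the 10 genes in the 12 libraries, with the symbol giving the replicate number and the bar the mean of 3 libraries. Tfrc, Fth1, Hmox1 and Slc11a2 separate the groups with IFNβ from those without, whereas the 4 groups overlap for Steap3.

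Ferritin is a shell of heavy and light chains that holds iron in mineral form, and the heavy chain, encoded by Fth1 (chromosome 19, 9957911 to 9962462, plus strand), oxidizes the iron on entry. Fth1 measured 12930, 13500 and 13500 CPM in untreated libraries 1 to 3, and 7539, 7390 and 7393 CPM with rIFNβ. It measured 13570, 13310 and 13040 CPM with eGFP supernatant and 8382, 7954 and 8236 CPM with Ifnb1eGFP supernatant. Every library with IFNβ was below every library without. The level fell by 44.1% with rIFNβ, a log2 fold change of -0.84 (SE 0.03, adjusted p = 4.22e-09), and by 38.4% between the supernatants, a log2 fold change of -0.70 (SE 0.03, adjusted p = 2.01e-08).

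The light chain, encoded by Ftl1 (chromosome 7, 45107367 to 45109308, minus strand), supports mineral formation inside the shell. Ftl1 measured 13220, 13070 and 13150 CPM in untreated cells, and 9089, 9360 and 9049 CPM with rIFNβ. With eGFP supernatant it measured 13980, 14140 and 11920 CPM, and with Ifnb1eGFP supernatant 6267, 10100 and 7953 CPM. The groups with and without IFNβ did not overlap, but the 3 Ifnb1eGFP libraries were spread far more widely than those of Fth1. Ftl1 fell by 30.3% with rIFNβ (log2 fold change -0.52, SE 0.13, adjusted p = 0.00562) and by 39.3% between the supernatants (-0.72, SE 0.13, adjusted p = 0.000704).

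The share of both ferritin mRNAs in all counts was also read. Fth1 and Ftl1 together took 2.64% ± 0.0361 (SD, n = 3) of all counts in untreated cells and 2.64% ± 0.0907 with eGFP supernatant. They took 1.67% ± 0.00577 with rIFNβ and 1.63% ± 0.15 with Ifnb1eGFP supernatant. The lowest library without IFNβ, at 2.54%, lay above the highest with it, at 1.77%. The log2 ratio of Fth1 to Ftl1 was -0.03, 0.05 and 0.04 in untreated libraries, and -0.27, -0.34 and -0.29 with rIFNβ. In the Ifnb1eGFP supernatant libraries it was 0.42, -0.34 and 0.05, a wider spread than in any other group. This ratio is of counts and is not corrected for length.

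Near-identical copies took few of these counts. The 8 Ftl1 copies found by sequence together held 1.34% to 1.51% of the Ftl1 count in each library, and the Fth1 pseudogene Fth1-ps held 0.0205% to 0.0295% of the Fth1 count. Adding the copies left the log2 fold changes of both genes unaltered to 2 decimals in the 4 pairwise comparisons.

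**Figure D3:**
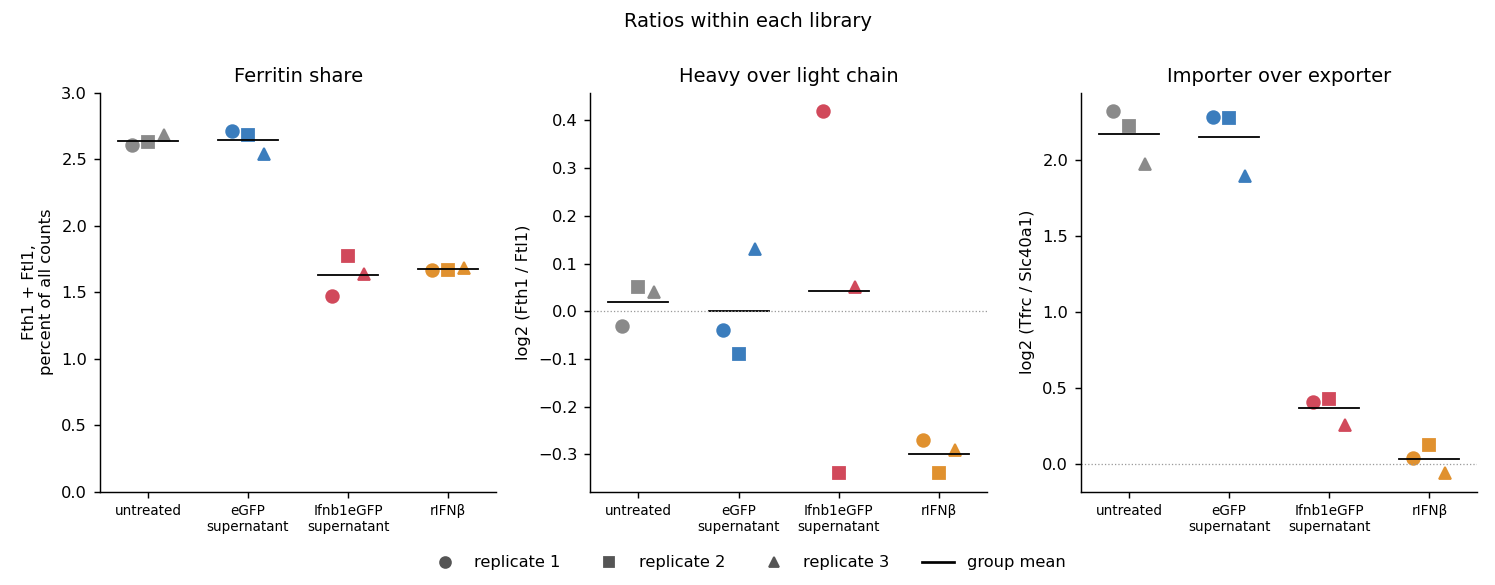
Within-library quantities for the 12 libraries (symbols give the replicate number, bars the mean of 3): the percent of all counts in Fth1 and Ftl1, the log2 ratio of Fth1 to Ftl1, and the log2 ratio of Tfrc to Slc40a1. The ferritin share is 2.54% to 2.71% without IFNβ and 1.47% to 1.77% with it, and the Ifnb1eGFP libraries spread from -0.34 to 0.42 in the chain ratio.

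Ncoa4 (chromosome 14, 31881822 to 31902234, plus strand) encodes the receptor that delivers ferritin to lysosomes so that its iron is released. It measured 251.4, 267.3 and 236.6 CPM in untreated cells and 250.3, 237.2 and 243.6 CPM with rIFNβ, overlapping groups with a log2 fold change of -0.05 (95% interval -0.22 to 0.12, adjusted p = 0.636). With eGFP supernatant it measured 278.4, 254.5 and 254.5 CPM, and with Ifnb1eGFP supernatant 253.8, 204.2 and 218.2 CPM. These groups did not overlap, though the nearest libraries were less than 1 CPM apart, and the difference was called lower (log2 fold change -0.22, SE 0.08, adjusted p = 0.0303). Without Ifnb1eGFP supernatant replicate 1 it was -0.35 (adjusted p = 0.00113). The call was lost without eGFP supernatant replicate 1 (adjusted p = 0.114), without Ifnb1eGFP supernatant replicate 2 (0.103) or 3 (0.097), and when the 2 groups were fitted alone (0.0839).

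Iron uptake held the largest fall of the 10. Tfrc (chromosome 16, 32427556 to 32451612, plus strand) encodes the receptor that carries iron-loaded transferrin into the cell. Its levels were 1078, 1162 and 771.8 CPM in untreated cells and 277, 298 and 233.3 CPM with rIFNβ. With eGFP supernatant they were 1157, 1066 and 760.8 CPM, and with Ifnb1eGFP supernatant 371.3, 340.5 and 278.6 CPM. The groups with IFNβ were far below those without, and within each of the 4 groups replicate 3 was the lowest. Tfrc fell by 73.2% with rIFNβ (log2 fold change -1.90, SE 0.19, adjusted p = 5.44e-06) and by 66.8% between the supernatants (-1.59, SE 0.19, adjusted p = 2.26e-05).

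Steap3 (chromosome 1, 120118487 to 120200435, minus strand), which reduces ferric iron in the endosome before it can leave, was not called in either comparison. It measured 62.47, 61.29 and 63.37 CPM in untreated cells and 64.35, 69.58 and 57.15 CPM with rIFNβ. The log2 fold change was 0.03 (95% interval -0.27 to 0.33, adjusted p = 0.872), and it was -0.02 with RLE factors and with DESeq2. With eGFP supernatant it measured 69.17, 66.59 and 53.51 CPM and with Ifnb1eGFP supernatant 46.27, 68.58 and 51.71 CPM. These groups overlapped, and the log2 fold change of -0.18 (95% interval -0.48 to 0.12) was not called (adjusted p = 0.276). Ifnb1eGFP replicate 2 was the high library here, as it was for Ftl1, and without it the difference was called lower (-0.36, adjusted p = 0.0149).

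The transporters Slc11a2 and Slc11a1 move divalent metal out of endosomes and phagosomes. Slc11a2 (DMT1, chromosome 15, 100285776 to 100322953, minus strand) measured 100.8, 102.4 and 98.41 CPM in untreated cells and 59.51, 59.78 and 57.46 CPM with rIFNβ. It measured 89.46, 98.17 and 91 CPM with eGFP supernatant and 56.38, 60.96 and 58.4 CPM with Ifnb1eGFP supernatant. The spread within groups was small and the groups with and without IFNβ lay far apart. Slc11a2 fell by 41.4% with rIFNβ (log2 fold change -0.77, SE 0.05, adjusted p = 8.4e-08) and by 36.9% between the supernatants (-0.66, SE 0.05, adjusted p = 3.1e-07).

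Slc11a1 (NRAMP1, chromosome 1, 74414303 to 74425448, plus strand) sits in the phagosome membrane of macrophages and is known for resistance to intracellular pathogens. It measured 288.2, 272.5 and 278.2 CPM in untreated cells and 240.1, 219.3 and 199.8 CPM with rIFNβ. With eGFP supernatant it measured 280.6, 261.7 and 236.3 CPM, and with Ifnb1eGFP supernatant 178.5, 216.5 and 181.1 CPM. Each treated group lay below its control with no overlap, by a smaller margin than Slc11a2. It fell by 21.4% with rIFNβ (log2 fold change -0.35, SE 0.09, adjusted p = 0.00633) and by 26.0% between the supernatants (-0.43, SE 0.09, adjusted p = 0.00161).

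On the export side levels were higher with IFNβ. Slc40a1, the ferroportin gene (chromosome 1, 45947211 to 45965683, minus strand) measured 215.3, 250.3 and 196.7 CPM in untreated cells and 270.1, 272.9 and 243.7 CPM with rIFNβ. With eGFP supernatant it measured 238.8, 221 and 205.1 CPM, and with Ifnb1eGFP supernatant 279.6, 252 and 232.5 CPM. The means were higher with IFNβ in both comparisons, but untreated replicate 2 reached above rIFNβ replicate 3 and the supernatant groups overlapped too. The difference was called for rIFNβ at the edge of the threshold (log2 fold change 0.25, SE 0.10, adjusted p = 0.0465) and not between the supernatants (0.20, SE 0.10, adjusted p = 0.0989). The rIFNβ call was lost with DESeq2 (adjusted p = 0.0831), with RLE factors (0.0969), with the 2 groups fitted alone (0.0542), and without untreated replicate 1 (0.119) or 3 (0.182) or rIFNβ replicate 1 (0.12) or 2 (0.131).

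The importer and the exporter were also set against each other within each library. The log2 ratio of Tfrc to Slc40a1 counts was 2.32, 2.22 and 1.97 in untreated libraries and 2.28, 2.27 and 1.89 with eGFP supernatant. It was 0.41, 0.43 and 0.26 with Ifnb1eGFP supernatant and 0.04, 0.13 and -0.06 with rIFNβ. The ratio is not corrected for length, and no library with IFNβ came within 1 log2 unit of any library without.

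Cp (chromosome 3, 20011090 to 20063930, plus strand) encodes the copper enzyme that oxidizes iron as ferroportin releases it, and was the least abundant of the set, with 47 to 193 counts per library. It measured 1.494, 1.756 and 1.609 CPM in untreated cells and 4.242, 3.823 and 3.992 CPM with rIFNβ. It measured 1.844, 1.389 and 1.405 CPM with eGFP supernatant and 4.88, 3.973 and 3.974 CPM with Ifnb1eGFP supernatant. All libraries with IFNβ were above all without. Cp rose 2.48-fold with rIFNβ (log2 fold change 1.31, SE 0.14, adjusted p = 1.07e-05) and 2.76-fold between the supernatants (1.47, SE 0.14, adjusted p = 4.07e-06). The gene shares 13825 bp with Hps3 on the opposite strand. Hps3 averaged 27.2 CPM in untreated cells and 42.5 CPM with rIFNβ and rose as well (log2 fold change 0.64, adjusted p = 7.45e-05), and 28.5 and 43.7 CPM with the eGFP and Ifnb1eGFP supernatants (0.62, adjusted p = 9.5e-05). Whether the counting used strand is not given in the sources used here, and the part of Hps3 reads in the Cp counts was not tested.

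Hmox1 (chromosome 8, 75820241 to 75827217, plus strand) encodes the inducible heme oxygenase, which opens the heme ring and frees its iron. It measured 1092, 1145 and 1078 CPM in untreated cells and 626.7, 610.7 and 612.6 CPM with rIFNβ. With eGFP supernatant it measured 1212, 1167 and 1035 CPM, and with Ifnb1eGFP supernatant 557.9, 669.3 and 614 CPM. The lowest library without IFNβ was well above the highest with it. Hmox1 fell by 44.2% with rIFNβ (log2 fold change -0.84, SE 0.07, adjusted p = 1.4e-06) and by 46.1% between the supernatants (-0.89, SE 0.07, adjusted p = 9.62e-07).

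Hmox1 is also known as a target of the oxidative stress factor NRF2, so 8 other genes of that program were read beside it. Nfe2l2, the gene of NRF2 itself, is 1 of the 8. With rIFNβ 7 of 8 were called lower and 0 higher, and between the supernatants 6 of 8 lower and 0 higher. Of all tested genes 24.6% and 25.0% were called lower. The highest log2 fold change of the list with rIFNβ was that of G6pdx, 0.09, with no overlap but not called (adjusted p = 0.167). Between the supernatants the highest was 0.11, also not called. Txnrd1, a thioredoxin reductase, went from a mean of 384 CPM in untreated cells to 147 CPM with rIFNβ (log2 fold change -1.39, adjusted p = 1.71e-09). Srxn1, which repairs oxidized peroxiredoxins, went from 338 to 164 CPM (-1.04, adjusted p = 3.79e-09), and Slc7a11, the cystine importer, from 20.2 to 2.31 CPM (-3.13, adjusted p = 1.05e-08). Between the supernatants these 3 genes also fell, by 1.21, 0.84 and 2.91 on the log2 scale. The median of the list was -0.98 with rIFNβ and -0.62 between the supernatants, against 0.044 and 0.028 over all tested genes. The part of NRF2 in the fall of Hmox1 was not tested.

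**Figure D4:**
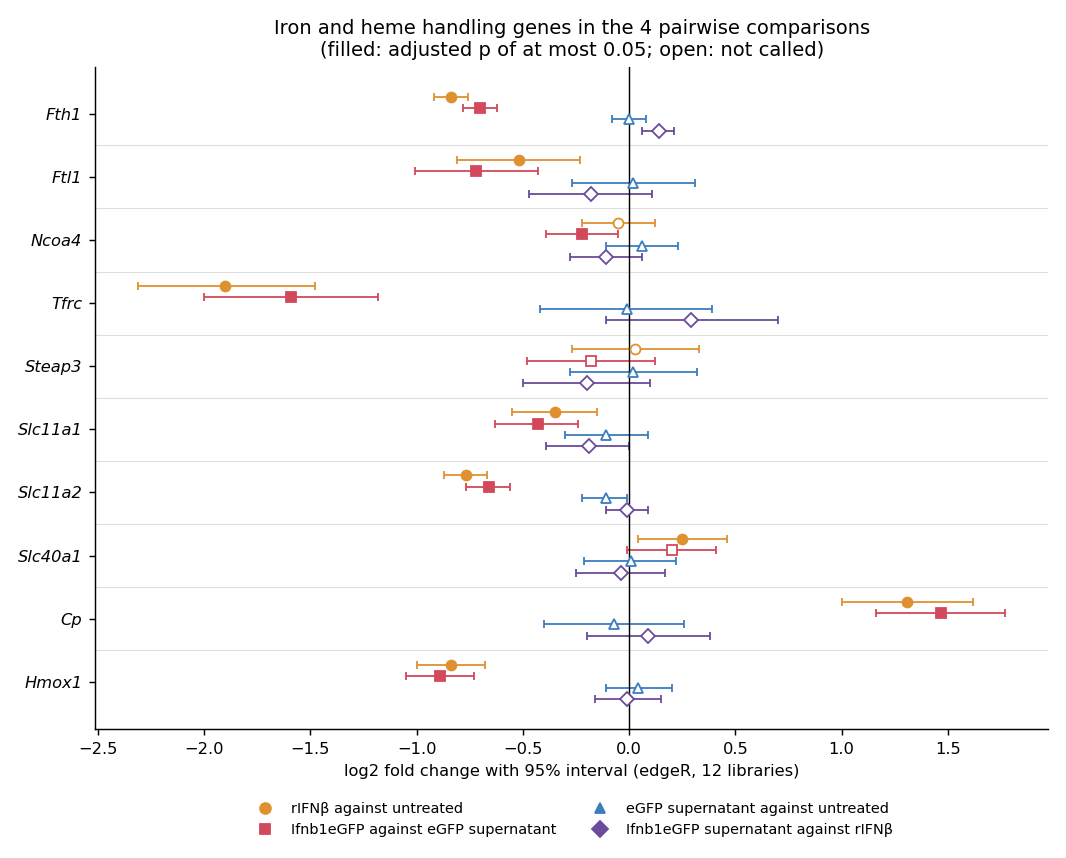
Log2 fold changes with 95% intervals of the 10 genes in the 4 pairwise comparisons, filled where the adjusted p was at most 0.05. The 2 comparisons of IFNβ lie together, from -1.90 for Tfrc to 1.47 for Cp, and the 20 values of the other comparisons lie between -0.20 and 0.29 with none called.

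The supernatant itself, without IFNβ, was read by setting eGFP supernatant against untreated cells. The untreated libraries here also serve the rIFNβ comparison and the eGFP libraries the supernatant comparison, so these results are not independent of those above. Of the 10 genes 0 were called by edgeR's test, 0 by DESeq2, and 1 had an unadjusted p under 0.05. Of all tested genes 0.299% were called by edgeR's test, 1.36% by DESeq2, and 8.0% had such a p. Log2 fold changes ran from -0.11 to 0.06. The gene with an unadjusted p of 0.03 was Slc11a2 (95% interval -0.22 to -0.01, adjusted p = 0.55), whose 3 eGFP libraries all lay below the 3 untreated ones, as in 15.5% of all tested genes in either direction. For Tfrc the interval was -0.42 to 0.39 and for Fth1 -0.08 to 0.08.

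The 2 sources of IFNβ were then compared directly. Of the 10 genes 0 were called by edgeR's test and 1 by DESeq2, and 1 had an unadjusted p under 0.05. Of all tested genes 0.160% were called by edgeR's test, 0.765% by DESeq2, and 8.57% had such a p. The member called by DESeq2 and the member with such a p were the same gene, Fth1. It was higher in all 3 Ifnb1eGFP supernatant libraries than in the 3 rIFNβ libraries (log2 fold change 0.14, 95% interval 0.06 to 0.21, adjusted p = 0.29, DESeq2 adjusted p = 0.0329). Such separation was seen in 12.8% of all tested genes. Without Ifnb1eGFP supernatant replicate 2 both Fth1 (0.16, adjusted p = 0.0322) and Ftl1 (-0.37, adjusted p = 0.0438) were called, in opposite directions, and without that library 6.85% of all tested genes were called, 1051 of 15333. For Tfrc the difference was 0.29 with an interval of -0.11 to 0.70, and for Hmox1 -0.01 with an interval of -0.16 to 0.15.

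Whether the supernatant altered the response to IFNβ was tested as an interaction. Of the 10 genes 0 were called by edgeR and by DESeq2, and 1, Fth1, had an unadjusted p under 0.05 (0.14 on the log2 scale, 95% interval 0.03 to 0.25, adjusted p = 0.926). Of all tested genes 0.00% were called by edgeR, 0.0599% by DESeq2, and 4.40% had such a p. The largest interaction was that of Tfrc, 0.31 with an interval of -0.26 to 0.88. Pooled over both IFNβ states, supernatant against no supernatant called 0 of the 10 by edgeR and by DESeq2. An unadjusted p under 0.05 was found for 2, Fth1 at 0.07 and Slc11a1 at -0.15 on the log2 scale. Of all tested genes 0.905% were called by edgeR, 2.32% by DESeq2, and 11.4% had such a p. Slc40a1, called in 1 IFNβ comparison and not in the other, had an interaction of -0.05 with an interval of -0.35 to 0.25.

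Levels of different genes were compared per kilobase of merged exons. In untreated cells the order from the top was Ftl1 (9800 CPM per kb), Fth1 (3780), Hmox1 (628), Tfrc (142), Slc11a1 (70.2), Ncoa4 (25.1), Slc40a1 (23.4), Slc11a2 (9.08), Steap3 (8.43) and Cp (0.145). Ncoa4 and Slc40a1, and Slc11a2 and Steap3, are neighbours whose libraries differ by little on this scale. With rIFNβ Tfrc, at 38.1 CPM per kb, came below Slc11a1 at 55.2, and with Ifnb1eGFP supernatant it stood at 46.7 against 48.2 for Slc11a1. The merged exons of Fth1 include long rare transcripts. By the length of the canonical transcript Fth1 came first in untreated cells, at 14300 CPM per kb against 13600 for Ftl1, and Tfrc with rIFNβ (55) came below both Slc11a1 (84.5) and Slc40a1 (75.7).

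Genes with the most similar profile over the 12 libraries were sought for 4 members, by Pearson's r of log2 CPM, as a description. Closest to Fth1 were Dbi, Tmem50b and Ddb1, at 0.996 to 0.997, and to Hmox1 Man2a2, Psap and Mvd, at 0.996 to 0.997. Closest to Tfrc were Aplp2, Gpr137b and Cyb5b, at 0.994 to 0.997. For Slc40a1 the best were Skp2, Mfsd9 and Zfp719, at 0.921 to 0.924. The libraries fell into those with and those without IFNβ for the first 3 genes, so these values rank genes by that separation.

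The wider pathway was read through 7 lists, 78 genes in all with the 10 included, of which 64 were tested. Beyond the 10, 33 of 54 tested genes were called with rIFNβ, 16 higher and 17 lower, where 55.3% of all tested genes were called. Between the supernatants 36 of 54 were called, 16 higher and 20 lower, where 55.1% of all tested genes were. The medians of these 54 genes were -0.05 and -0.01. Of the 14 untested genes none exceeded 8 counts in any library, among them the mitochondrial ferritin Ftmt, listed at 0 throughout, the hepcidin genes Hamp and Hamp2, the second transferrin receptor Tfr2, the ferroxidase Heph and the erythroid enzyme Alas2.

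Each list below includes its share of the 10, and its counts are to be read beside the 55.3% and 55.1% of all tested genes called in the 2 comparisons. In the list of storage and release 3 of 5 tested genes were called with rIFNβ, 2 lower and 1 higher, and 4 of 5 between the supernatants, 3 lower and 1 higher. Pcbp2, an iron chaperone that loads ferritin, rose beside the fall of both ferritin chains, by 0.22 on the log2 scale with rIFNβ (adjusted p = 0.0011) and 0.26 between the supernatants (adjusted p = 0.000309). In the export list only Slc40a1 and Cp were tested. In the uptake list 6 of 11 tested genes were called with rIFNβ, 5 lower and 1 higher, and 8 of 11 between the supernatants, 5 lower and 3 higher. Trf, transferrin itself, was at 1100 to 1120 CPM in untreated libraries and 347 to 375 CPM with rIFNβ (log2 fold change -1.60, SE 0.05, adjusted p = 5.42e-10). It was at 1240 to 1300 CPM with eGFP supernatant and 414 to 459 CPM with Ifnb1eGFP supernatant (-1.52, SE 0.05, adjusted p = 9.77e-10). Ligand and receptor thus both fell. Slc22a17, a receptor for iron-siderophore carriers with 10 to 41 counts per library, fell by 1.49 and 1.40 in the 2 comparisons (adjusted p = 0.000493 and 0.000588). Trf was also the 1 gene of the 64 called for supernatant pooled over both IFNβ states, higher by 0.24 (SE 0.03, adjusted p = 0.00993).

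The heme lists held the largest single changes. In the uptake, transport and breakdown list 12 of 15 tested genes were called with rIFNβ, 7 lower and 5 higher, and 12 of 15 between the supernatants, 8 lower and 4 higher. Hmox2, the constitutive heme oxygenase, moved opposite to Hmox1. It was at 90.8 to 99 CPM in untreated libraries and 237 to 248 CPM with rIFNβ (log2 fold change 1.37, SE 0.06, adjusted p = 5.81e-09), and at 98 to 114 CPM and 241 to 250 CPM with the eGFP and Ifnb1eGFP supernatants (1.23, SE 0.06, adjusted p = 1.52e-08). Pgrmc1, a heme-binding membrane protein, fell by 1.26 and 1.10 on the log2 scale (adjusted p = 8.08e-10 and 2.24e-09), and Slc48a1, which passes heme out of the phagolysosome, fell by 0.93 and 0.88 (adjusted p = 1.3e-08 and 2.25e-08). Abcg2, a heme and drug exporter, fell by 1.42 and 1.35 (adjusted p = 6.51e-08 and 1.12e-07).

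The scavengers of free hemoglobin were low to begin with. Cd163, the receptor for haptoglobin-bound hemoglobin, fell from a mean of 5.61 to 1.95 CPM with rIFNβ (log2 fold change -1.52, adjusted p = 7.2e-06) and from 5.80 to 1.99 CPM between the supernatants (-1.54, adjusted p = 6.11e-06). Hp, haptoglobin, had 48 to 71 counts in libraries without IFNβ and 3 to 8 with it (-3.57 and -3.22, adjusted p = 2.42e-07 and 3.63e-07). Hp is abundant in neutrophils, and a list of 7 neutrophil markers summed to 4.31 to 5.75 CPM without IFNβ and 0.237 to 1.01 CPM with it. S100a8, the one tested gene of the list, fell by 4.16 and 3.35 on the log2 scale. Of that list Ly6g, S100a9, Camp, Ngp, Elane and Mpo were at 10 counts or fewer in every library, and the part of such cells in the Hp result was not tested. Spic, the factor of iron-recycling macrophages, had 16 to 29 counts without IFNβ and 31 to 69 with it and rose by 1.47 and 1.20 (adjusted p = 0.000198 and 0.000676).

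In heme synthesis 8 of 11 tested genes were called in each comparison, 6 lower and 2 higher by count, the higher 2 not being the same pair. Alas1, the rate-limiting first enzyme, stood apart. It was at 531 to 566 CPM in untreated libraries and 73.5 to 77.2 CPM with rIFNβ, an 86.3% fall (log2 fold change -2.87, SE 0.10, adjusted p = 1.15e-09). It was at 501 to 585 CPM with eGFP supernatant and 65.8 to 88.8 CPM with Ifnb1eGFP supernatant, a fall of 86.0% (-2.83, SE 0.10, adjusted p = 1.5e-09). The later enzymes moved less: Alad fell by 0.61 and 0.69 (adjusted p = 0.00824 and 0.00448), the porphyrin transporter Abcb6 by 0.39 and 0.45 (adjusted p = 0.00559 and 0.00223) and Urod by 0.15 and 0.19 (adjusted p = 0.0226 and 0.00641). Abcb10, a mitochondrial transporter, fell by 0.30 and 0.16 (adjusted p = 0.00161 and 0.0435). Its second call was made in 7 of 19 fits, counting the main one and the alternatives. Ppox, a late enzyme of the route, rose by 0.50 with rIFNβ (adjusted p = 0.00488) and was not called between the supernatants (0.20, adjusted p = 0.192). Fech, which inserts the iron, was not called in either comparison (0.09 and 0.12).

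Of the genes that sense iron, 3 of 6 tested were called in each comparison. Aco1, which encodes iron regulatory protein 1, fell by 0.30 and 0.27 (adjusted p = 5.28e-05 and 0.000102). Ireb2, encoding iron regulatory protein 2, was not called (-0.07 and -0.02, adjusted p = 0.43 and 0.82). Hfe, the hemochromatosis protein that binds the transferrin receptor, rose by 0.60 and 0.47 (adjusted p = 7.36e-06 and 5.09e-05), and Smad4 by 0.24 and 0.32 (adjusted p = 0.000924 and 0.000131).

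In the mitochondrial list 7 of 14 tested genes were called with rIFNβ, 5 higher and 2 lower, and 8 of 14 between the supernatants, 4 in each direction. The mitochondrial iron importers led it. Slc25a37 (mitoferrin 1) was at 18.3 to 22.9 CPM in untreated libraries and 40.9 to 47.8 CPM with rIFNβ (log2 fold change 1.08, SE 0.10, adjusted p = 2.59e-06), and rose by 0.69 between the supernatants (adjusted p = 9.45e-05). Slc25a28 (mitoferrin 2) rose by 0.87 and 0.64 (adjusted p = 0.000493 and 0.00388). Hscb, a chaperone of iron-sulfur cluster transfer, rose by 0.70 and 0.43 (adjusted p = 4.8e-05 and 0.00188), while Cisd1, an outer membrane cluster protein, fell by 0.40 and 0.36 (adjusted p = 0.00074 and 0.0014).

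**Figure D5:**
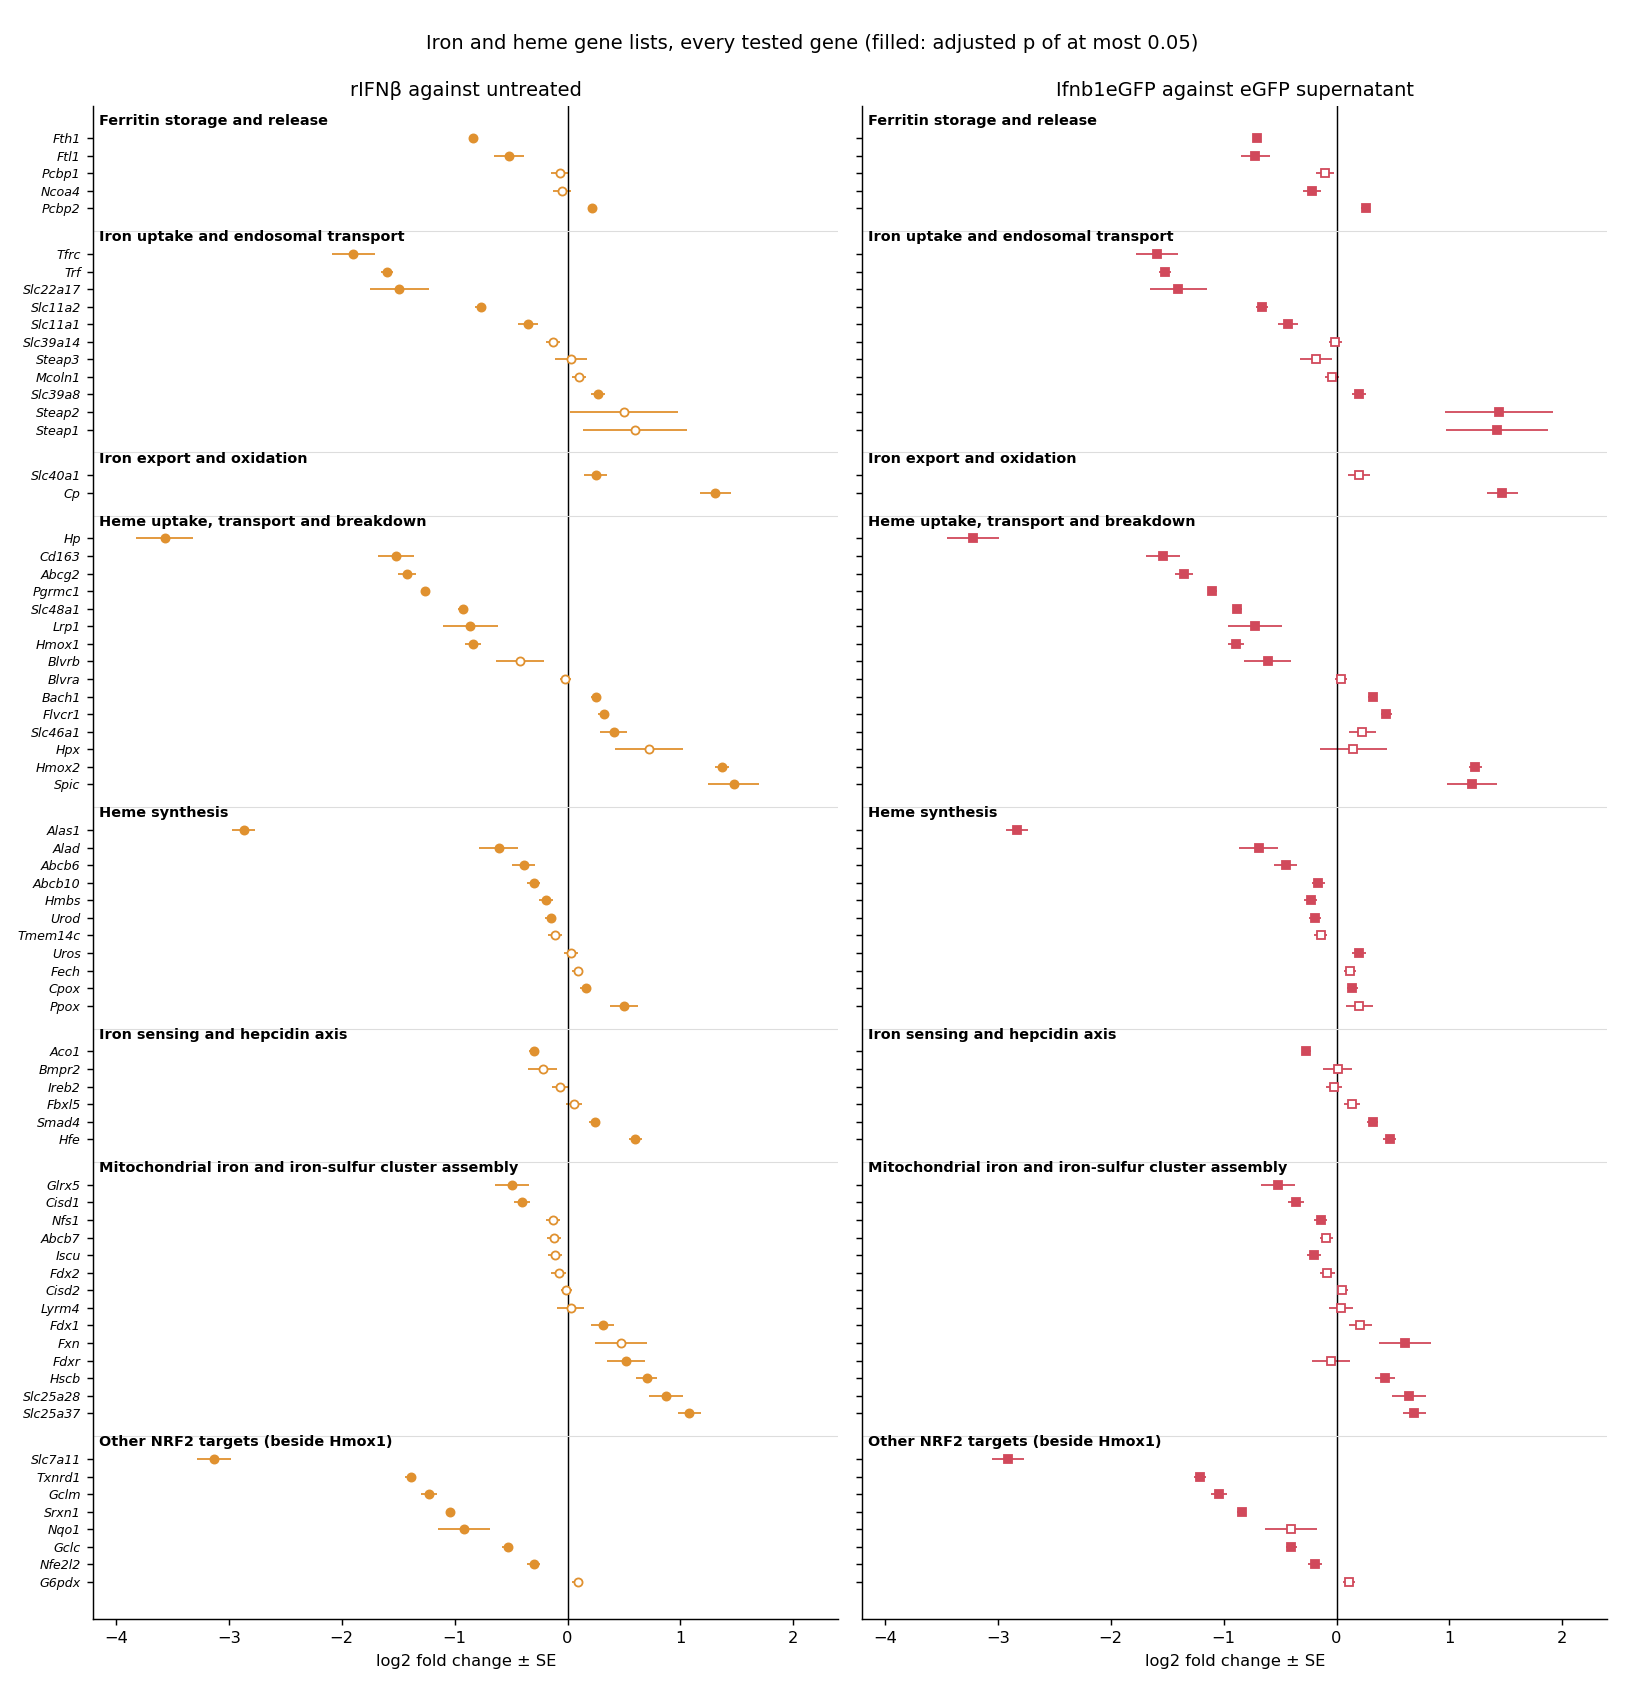
Log2 fold changes with SE of every tested gene of the 7 iron and heme lists and of the NRF2 list, for rIFNβ against untreated cells (left) and Ifnb1eGFP against eGFP supernatant (right), filled where the adjusted p was at most 0.05. Hp, Slc7a11 and Alas1 lie farthest to the left in both panels, and Tfrc and Trf lead the uptake list.

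The wider lists were also read for the supernatant and the source. Of the 64 genes 0 were called for eGFP supernatant against untreated cells by edgeR, 1 by DESeq2, and 7 had an unadjusted p under 0.05. Of all tested genes 0.299% were called by edgeR, 1.36% by DESeq2, and 8.0% had such a p. Between the 2 sources of IFNβ 0 were called by edgeR, 2 by DESeq2, and 6 had an unadjusted p under 0.05, and without Ifnb1eGFP supernatant replicate 2 the edgeR count was 5, beside the 6.85% of all tested genes called there. DESeq2 called 0.765% of all tested genes between the sources, and 8.57% had an unadjusted p under 0.05. The interaction called 0 of the 64 by edgeR and by DESeq2, with 4 at an unadjusted p under 0.05, as had 4.40% of all tested genes.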

How the data were processed

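Total RNA of 12 BMDM cultures was made into TruSeq stranded libraries. The authors deposited expected counts per Ensembl gene, made with RSEM (1.3.3, per the labels) and not normalized. The reference is named as GRCm39 and mm10 together. Positions here are those of GRCm39 with GENCODE M39, in which 56017 of the 56748 rows had a gene. The annotation release and strand setting of the counting are not given in the sources used here.

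Expected counts, 12% of them not whole, were rounded. The 15033 genes kept by filterByExpr entered 1 edgeR (4.0.16, R 4.3.3) model of all 12 libraries with TMM scaling. Unless DESeq2 (1.42.0) is named, an adjusted p comes from edgeR's quasi-likelihood test, with the Benjamini-Hochberg method applied to those genes. A gene was called at 0.05. SE is the log2 fold change over the square root of F, and 95% intervals use the t distribution with the test's degrees of freedom. Fold changes use edgeR's default prior count, and the log2 CPM behind correlations and deviations a prior count of 2. An exact permutation test of 3 libraries against 3 cannot go below 0.1, so none was run. Libraries of a group differed beyond counting error (chi-square per degree of freedom 5.73 to 59.4, 12 pairs) and were kept as separate replicates. Whether cultures of different groups shared mice is not stated.

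The 10 genes, the lists and the rules were chosen with earlier results of these data known. All 10 are given in full, and of each list in each comparison at most 4 called genes by smallest adjusted p. Fech, Ireb2, Spic, Cd163, Hp, S100a8, Pmel, Arg1, Cd209a, Nfe2l2 and G6pdx were added after their values were seen. So were the stromal and dendritic genes given with values. IRE hairpins were read from GRCm39, and copies of ferritin were transcripts matching at 90% identity or more over at least 50% of the coding sequence. The model was checked on simulated data. Alternatives were DESeq2, RLE factors, library totals, no filter, a replicate block, the compared groups alone, each library left out and a stricter threshold.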

Additional observations from a re-analysis of the deposited data

How the results depend on the processing

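Of the 10 genes, Fth1, Ftl1, Hmox1, Tfrc, Slc11a1, Slc11a2 and Cp kept their direction and call under every alternative run in both IFNβ comparisons, apart from the stricter threshold. That threshold (adjusted p up to 0.01 and a log2 fold change of 2 or more in size) called 0 of the 10 in either, and 2 of the 64 pathway genes in each (0 for the pooled supernatant). With 1 library left out, 7 to 8 of the 10 were called for rIFNβ and 7 to 8 between the supernatants. Of the 64 pathway genes 35 to 40 and 35 to 45 were called, and of all tested genes 48.9% to 50.2% and 47.9% to 56.6%. Between the 2 sources of IFNβ, DESeq2 called 1 of the 10 and 2 pathway genes, RLE factors 1 and library totals 1 pathway gene, and leaving out libraries gave 0 to 2 of the 10 and 0 to 5 pathway genes, the highest counts without Ifnb1eGFP supernatant replicate 2. Of all tested genes DESeq2, RLE factors and library totals called 0.765%, 0.166% and 0.166% between the sources, and leaving out libraries gave 0.0261% to 6.85%. For eGFP supernatant against untreated cells DESeq2 called 1 pathway gene, beside 1.36% of all tested genes. The causes were not tested. In the 2 IFNβ comparisons the largest shift of the median of all genes by another scaling was from 0.044 to -0.003 (RLE factors, rIFNβ).

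Some differences that were not called changed sign. For Steap3 with rIFNβ the log2 fold change was -0.02 by DESeq2 and -0.02 by RLE factors, and -0.04 to 0.10 without single libraries. For Tfrc with eGFP supernatant it was 0.02 with no filter. Without single libraries, eGFP supernatant against untreated cells gave -0.02 to 0.10 for Ftl1, -0.01 to 0.11 for Hmox1, -0.07 to 0.11 for Slc40a1, -0.17 to 0.15 for Tfrc and -0.06 to 0.12 for Steap3. The 2 sources gave -0.07 to 0.06 for Hmox1, -0.11 to 0.02 for Slc40a1, -0.04 to 0.02 for Slc11a2 and -0.01 to 0.14 for Cp. The pooled supernatant gave -0.02 to 0.05 for Hmox1, -0.06 to 0.03 for Slc40a1, -0.06 to 0.05 for Cp and -0.07 to 0.01 for Ncoa4. The interaction gave -0.12 to 0.02 for Hmox1 and -0.15 to 0.03 for Slc40a1.

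A replicate block could be added because the groups share replicate numbers, but no label says what a number marks. Deviations of same-numbered libraries correlated at 0.0582 to 0.252 (18 pairs, 13 over 0.1), others at -0.318 to 0.147 (36 pairs), and 12 of 12 libraries correlated best with their own number, a hint from the data and not from the design. With the replicate block 8 of the 10 were called for rIFNβ and 9 between the supernatants, Slc40a1 being added there (log2 fold change 0.20, adjusted p = 0.0219 by edgeR), and 1 pathway gene was called between the sources. Of all tested genes the block called 58.8% for rIFNβ, from 55.3%, and 59% between the supernatants, from 55.1%. Over all tested genes it moved the calls from 45 to 122 for eGFP supernatant and from 24 to 48 between the sources.

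Added after the data were seen, the canonical transcript length put Fth1 at rank 1 per kilobase in untreated cells, from rank 2 by merged exons, and the looser IRE pattern raised the genes with an element from 4 to 5. Cp, Hp, Spic and Slc22a17 rest on low counts, given beside them, and intervals cover the spread between these libraries alone.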

Other observations

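The deviations of single libraries from their group means, on the log2 scale, were unevenly spread over the 10 genes. In the Ifnb1eGFP supernatant group Ftl1 deviated by -0.34, 0.34 and 0 in replicates 1, 2 and 3 and Steap3 by -0.24, 0.32 and -0.08, while Fth1 deviated by 0.03, -0.04 and 0.01. Hmox1 deviated by -0.13, 0.13 and 0 there, and Slc11a1 by -0.10, 0.18 and -0.08. In the same libraries Ncoa4 went the other way, at 0.18, -0.14 and -0.04. Tfrc was below its group mean in replicate 3 of all 4 groups, by 0.20 to 0.36, and Slc40a1 by 0.10 to 0.16.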
